A study of Caenorhabditis elegans with 6 samples.

Results

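The nematode-specific peptide (nsp) genes of Caenorhabditis elegans described here belong to the families nspa, nspb, nspc, nspd and nspe, each a set of short, closely related genes. Genes were taken as nsp genes when their symbol in the WBcel235 annotation began with nspa-, nspb-, nspc-, nspd- or nspe-. This gave 58 of the 46589 genes in the tables. Of these, 53 were listed above 0 in at least 1 library: 6 of 10 nspa genes, 12 of 12 nspb genes, 18 of 18 nspc genes, 9 of 10 nspd genes and 8 of 8 nspe genes. The genes listed at 0 everywhere were nspa-3, nspa-6, nspa-7, nspa-10 and nspd-8. A mean of at least 1 FPKM (fragments per kilobase of transcript per mega fragments) over the 6 libraries was required for testing. It was reached by 47 nsp genes: 3 nspa, 11 nspb, 18 nspc, 9 nspd and 6 nspe genes.

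The nsp families encode peptides of well under the length of a usual protein, and the molecular role of most of them is not established. Peptides of the nspd family have been found by proteomics in C. elegans sperm. In a hermaphrodite, sperm are made in the last larval stage and stored, after which the germline switches to oocytes, so transcripts of spermatogenesis decline and those of oocytes and yolk increase with adult age. Genes expressed during spermatogenesis are scarce on the X chromosome in this species.

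RNA came from the whole body of wild-type (WT) hermaphrodites, labelled young adult and kept at 20 °C. The tryptophan group held 3 libraries from worms fed 5 mM tryptophan for 36 h from the fourth larval stage (L4), and the control group held 3 libraries from worms 36 h after L4. The question was how gene expression differs in tryptophan-fed worms. Libraries are numbered 1 to 3 per group. Nothing in the labels says that they are separate cultures, so the p-values cover only the spread among the libraries in each fit, which may be technical.

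The libraries numbered 1 stood apart. Across the tested genes, tryptophan library 1 and control library 1 correlated at 0.578 on the log2 scale, against 0.960 to 0.980 among the other 4. Depth was an estimated 17.6, 20.8 and 25.1 M (mega) counted units in tryptophan libraries 1 to 3, against 14.9, 21.5 and 20.0 M in control libraries 1 to 3. The FPKM of all genes summed to 1.12e+06, 715748 and 608336 with tryptophan and to 1.01e+06, 733462 and 824915 in controls. It was thus highest in the libraries numbered 1. FPKM sums and their ratios below are as deposited unless a rescaling is named. A list of 68 sperm marker genes, among them the major sperm protein (msp) genes, summed to 26450, 7034 and 7348 FPKM with tryptophan and to 647, 9519 and 10839 FPKM in controls. None of its genes was at 0 in every library. The 18 oocyte genes summed to 1384, 2877 and 1977 FPKM with tryptophan and to 10867, 2707 and 2619 FPKM in controls. The 6 yolk genes summed to 406, 3951 and 1885 FPKM with tryptophan and to 19564, 1865 and 946 FPKM in controls. Sperm transcripts were thus highest in tryptophan library 1 and lowest in control library 1, and oocyte and yolk transcripts were the reverse. Each result below is therefore also given for libraries 2 and 3 of each group alone, a choice made with this split known. The median residual SD on the log2 scale was 0.636 over all 6 libraries and 0.202 in those 4. The p-values from those 4 libraries thus leave out the spread of the libraries numbered 1.

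The families differed in gene structure and position. The 10 nspd genes had a single exon of 213 to 222 bp encoding 70 to 73 residues, and lay on chromosomes I (3 genes), II (2), III (1) and IV (4). The 12 nspb genes had 2 exons encoding 79 to 86 residues, with 5 on chromosome II, 1 on III and 6 on IV. All 8 nspe genes, of 71 to 75 residues, lay within 16.9 kb of chromosome II (12612518 to 12629384). All 18 nspc genes, of 101 to 103 residues and 2 exons, lay on X. The 10 nspa genes had a single exon of 105 bp encoding 34 residues, 9 on V and 1 on X. For comparison, X holds 13.7% of the protein-coding genes in the annotation, and 3.46% of protein-coding genes have a single exon. How reads that match several copies were assigned is not given in the sources used here, so values of single members are uncertain and family sums are given beside them.

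**Figure D1:**
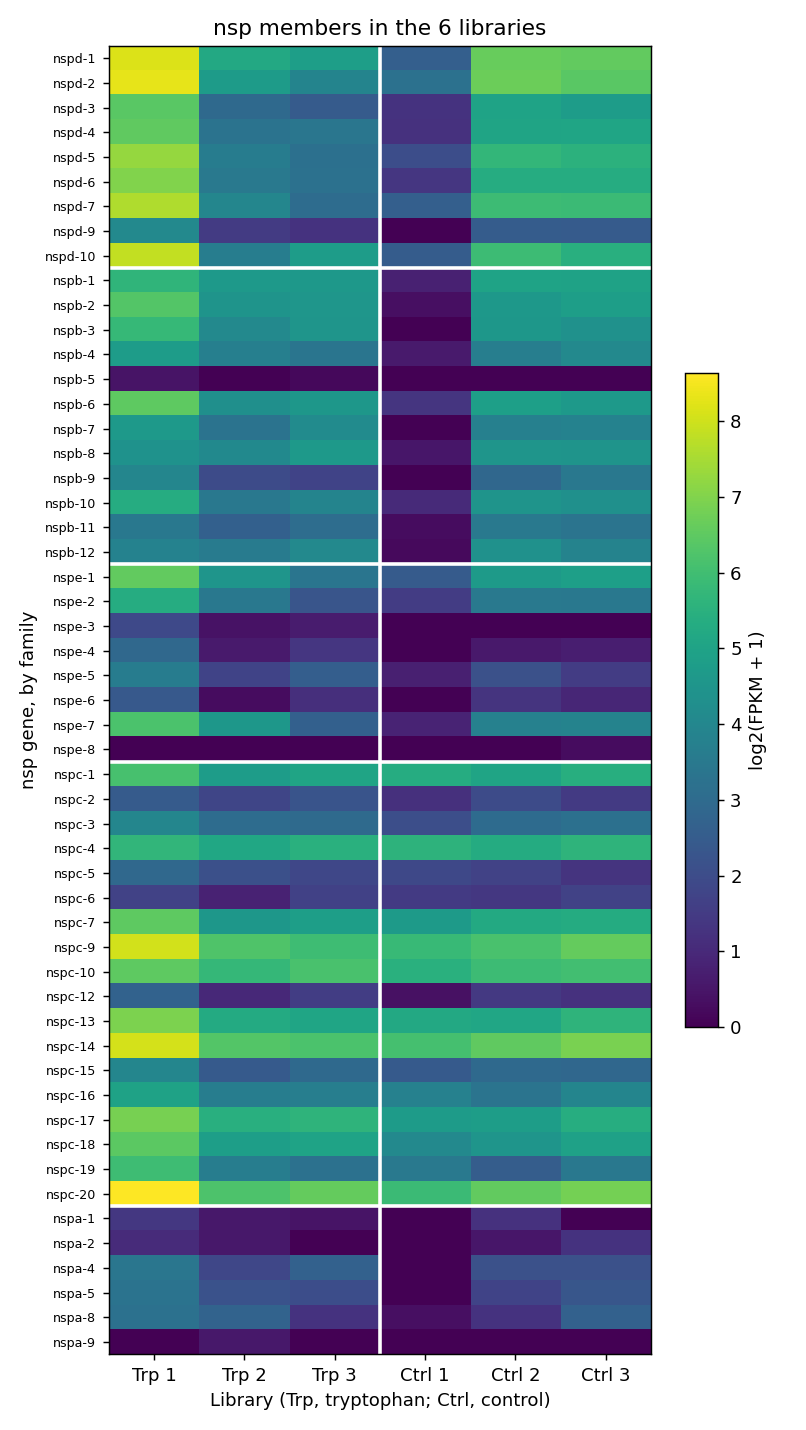
Level of the 53 nsp genes listed above 0, as log2(FPKM + 1), with 1 row per gene grouped by family and 1 column per library (Trp, tryptophan; Ctrl, control). Tryptophan library 1 is the brightest column for most members, and control library 1 is the darkest column for the nspd, nspb and nspa genes but not for all nspc genes.

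Over all 6 libraries, no nsp gene passed the test. limma on log2(FPKM + 1) called 0 of the 47 tested nsp genes higher and 0 lower, against 0% of the 13511 genes tested in each direction. At an unadjusted p under 0.05 it found 0 nsp genes and 158 genes in all, and the adjusted p of nsp genes ran from 0.802 to 0.990. The log2 fold change, tryptophan over control, was positive for 49 of the 53 listed members with a median of 0.66, against 47.7% positive and a median of -0.03 over all genes tested. The family medians were 0.54 for nspd (9 of 9 positive), 1.19 for nspb (12 of 12), 0.94 for nspe (7 of 8), 0.50 for nspc (16 of 18) and 0.68 for nspa (5 of 6). With quantile normalization the nspd median was 0.06 with 5 of 9 positive; the other 2 rescalings left it at 9 of 9. In 1 of the 47 tested nsp genes, nspc-17, every tryptophan library lay above every control library, against 3.98% of all genes tested. In 0 of the 47 did every tryptophan library lie below every control library, against 4.32%.

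These medians rested on the libraries numbered 1. The summed level of all members was 3871, 859 and 883 FPKM with tryptophan and 493, 1293 and 1386 FPKM in controls, so tryptophan library 1 was highest and control library 1 lowest. In libraries 2 and 3 alone, the log2 fold change was negative for 39 of the 53 members, against 52.6% of all genes tested. The median was -0.24, against -0.02 over all genes. After rescaling to TPM, which moved the median of all genes to 0.19, 30 of the 53 were negative, against 29.7% of all genes.

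**Figure D2:**
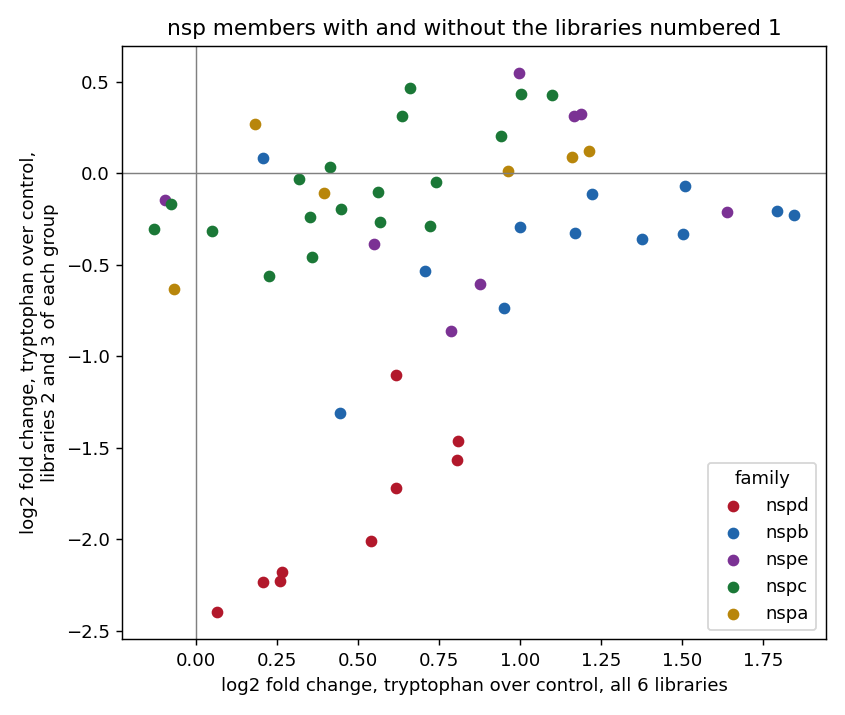
Log2 fold change (tryptophan over control) of each nsp gene over all 6 libraries on the x axis and over libraries 2 and 3 of each group on the y axis, coloured by family. The 9 nspd genes lie above 0 on the x axis and between -2.40 and -1.10 on the y axis, below all but 1 of the other members.

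The nspd genes, the family with peptides known from sperm, were lower in tryptophan libraries 2 and 3 than in control libraries 2 and 3. Their summed level was 1500, 127 and 107 FPKM in tryptophan libraries 1 to 3, against 30.7, 478 and 429.6 FPKM in control libraries 1 to 3. Tryptophan libraries 2 and 3 thus lay between the controls, above control library 1 and below the other 2. At the annotated exon lengths these sums would be 5684, 567 and 584 counted units with tryptophan, and 98.1, 2214 and 1848 in controls. The length behind the deposited FPKM was not the annotated one for every nsp gene, so these units are rough. Other lists also differed in libraries 2 and 3. The yolk list had a median log2 fold change of 1.10, and the tested cuticle collagens one of -0.61.

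In libraries 2 and 3, limma called 7 of the 9 nspd genes lower and 0 higher, against 0.252% of all genes tested in each direction. They were 7 of the 34 genes called lower among the 13511. All 9 had both tryptophan libraries below both control libraries, against 25% of all genes tested. The same held for 40 of the 63 tested sperm genes and 109 of the 122 tested cuticle collagens. The median log2 fold change was -2.01, with a range of -2.40 to -1.10. Among all genes tested, 137 (1.01%) were at or below -1.10, and the members of other families among them numbered 1. This result is limited to 4 libraries: without tryptophan library 1 alone the nspd median was -0.68 and without control library 1 alone -0.79, each with 9 of 9 negative and 0 called. In libraries 2 and 3, limma called 7 nspd genes lower with median rescaling, 7 with quantile normalization and 6, without nspd-4, with TPM, against 0.363%, 0.148% and 0.104% of all genes tested. The nspd median stayed between -2.02 and -1.81.

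nspd-1 (ZK484.8, chromosome I, 6097579 to 6097791) had 286, 36.5 and 27.8 FPKM with tryptophan, against 5.12, 98.1 and 94.5 FPKM in controls. Its log2 fold change in libraries 2 and 3 was -1.57 ± 0.21 (SE; limma, adjusted p = 0.0257). nspd-2 (K07F5.5, chromosome IV, 9844060 to 9844272) had 315, 25.7 and 13.8 FPKM with tryptophan, against 8.28, 102 and 84.1 FPKM in controls. Tryptophan libraries 2 and 3 were below control libraries 2 and 3 for both genes, and the groups overlapped once the libraries numbered 1 were included. The log2 fold change of nspd-2 in libraries 2 and 3 was -2.23 ± 0.29 (SE; limma, adjusted p = 0.0250). nspd-10 (T27C10.7, chromosome I, 10878105 to 10878326) had 230.0, 11.6 and 26.6 FPKM with tryptophan, against 4.66, 59.2 and 42.9 FPKM in controls. It too had tryptophan libraries 2 and 3 below control libraries 2 and 3 but did not pass, where limma gave -1.46 ± 0.36 on the log2 scale (SE, adjusted p = 0.172).

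The other 6 nspd genes, named after their values were seen, likewise had tryptophan library 1 highest, then control libraries 2 and 3, then tryptophan libraries 2 and 3, and control library 1 lowest. nspd-7 (Y43C5A.1, chromosome IV, 10268975 to 10269187) had 194, 14.5 and 7.33 FPKM with tryptophan, against 59.3 and 58.3 FPKM in control libraries 2 and 3 and 5.15 FPKM in control library 1. Its log2 fold change in libraries 2 and 3, -2.40 ± 0.30 (SE; limma, adjusted p = 0.0226), was the lowest of the family, and 4 genes of the 13511 were at or below it. nspd-5 (F11G11.8, chromosome II, 4860145 to 4860360) had 154, 11.4 and 8.07 FPKM with tryptophan, against 3.12, 52.1 and 45.8 FPKM in controls. nspd-6 (C24D10.8, chromosome IV, 5165511 to 5165726) had 128, 10.2 and 8.30 FPKM with tryptophan, against 1.60, 40.0 and 39.9 FPKM in controls. Both passed in libraries 2 and 3, at -2.23 and -2.01 (limma, adjusted p = 0.0107 for each).

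nspd-3 (C24D10.7), which lies within 2.9 kb of nspd-6, had 85.4, 6.67 and 4.55 FPKM with tryptophan, against 1.42, 31.1 and 26.3 FPKM in controls. nspd-4 (T23B7.1), within 17.8 kb of nspd-5, had 91.3, 8.82 and 9.60 FPKM with tryptophan, against 1.37, 32.0 and 33.1 FPKM in controls. Their log2 fold changes in libraries 2 and 3 were -2.18 (adjusted p = 0.0145) and -1.72 (adjusted p = 0.0171) in limma. In both genes, too, tryptophan libraries 2 and 3 lay below control libraries 2 and 3 and above control library 1. nspd-9 (F26A1.10), the least abundant, had 15.7, 1.86 and 1.42 FPKM with tryptophan, against 4.69 and 4.60 FPKM in control libraries 2 and 3 and a listed 0 in control library 1. It did not pass, at -1.10 (limma, adjusted p = 0.104), on the log2(FPKM + 1) scale that understates changes of low genes.

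**Figure D3:**
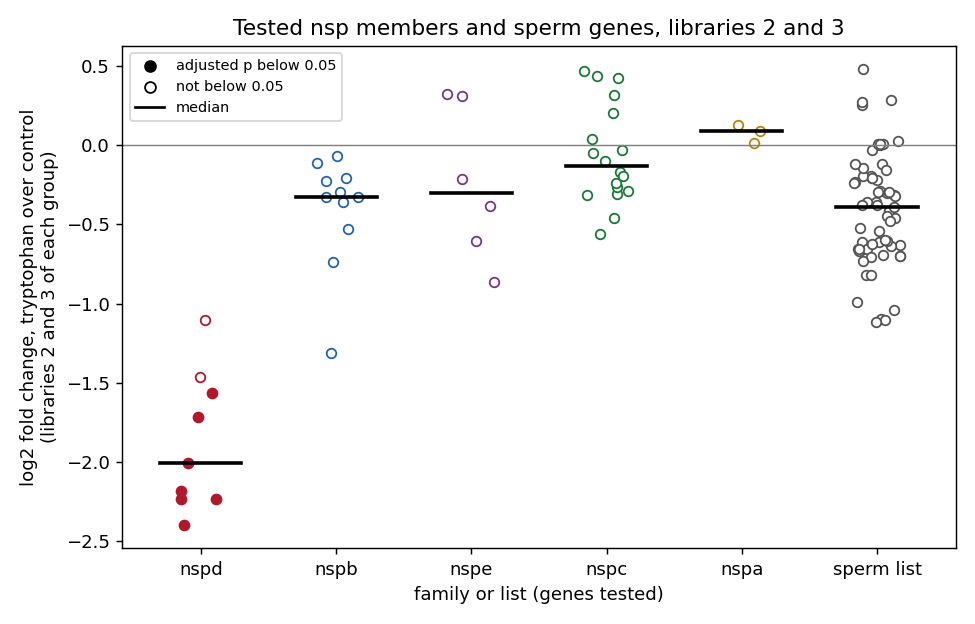
Log2 fold change (tryptophan over control, libraries 2 and 3 of each group) of each tested nsp gene by family and of the 63 tested sperm genes, with lines at the medians. Filled points passed an adjusted p of 0.05; they are 7 of the 9 nspd genes, and the nspd median is -2.01 against -0.39 for the sperm list.

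The sperm list had a smaller difference in the same libraries, with none of its genes past the test on the FPKM as deposited. The mean of tryptophan libraries 2 and 3 was 25.9% of that of control libraries 2 and 3 for the nspd sum, with single members at 18.5% to 37.4%. For the sperm list it was 70.6%. Of its 63 tested genes, 54 had a negative log2 fold change in libraries 2 and 3, the median was -0.39, limma called 0 and 2 were at or below -1.10. With median rescaling limma called 1 sperm gene lower. After rescaling to TPM the sperm median was -0.16 with 45 of 63 negative. Per 100 FPKM of the sperm list, nspd summed to 5.67, 1.81 and 1.46 FPKM in tryptophan libraries 1 to 3, against 4.75, 5.02 and 3.96 FPKM in control libraries 1 to 3. Tryptophan libraries 2 and 3 were the lowest of the 6 by this ratio, while tryptophan library 1 was the highest. Whether the difference between nspd and the sperm list exceeds chance was not tested. In whole animals, fewer cells of a type and less RNA per cell cannot be told apart. Other lists also differed between tryptophan libraries 2 and 3 and control libraries 2 and 3. The yolk list had a median log2 fold change of 1.10 with 6 of 6 positive, and the tested cuticle collagens a median of -0.61 with 117 of 122 negative. limma called 0 genes of either list (1 collagen gene, lower, with median rescaling), and the part of these differences in the nspd values was not tested.

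The libraries numbered 1 moved nspd in the same direction as the sperm list, and tryptophan library 1 moved nspd further. Control library 1 held 6.77% of the mean nspd sum of control libraries 2 and 3, and 6.35% of their mean sperm list sum. Tryptophan library 1 held 12.8 times the mean nspd sum of tryptophan libraries 2 and 3, with single members at 8.90 to 17.8 times, and 3.68 times their mean sperm list sum. These multiples include the higher FPKM total of tryptophan library 1. Per mega FPKM of all genes, nspd summed to 1344, 178 and 177 with tryptophan, against 30.3, 652 and 521 in controls. Tryptophan library 1 stayed the highest and control library 1 the lowest. The part of sperm content in the nspd values was not tested beyond these ratios.

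**Figure D4:**
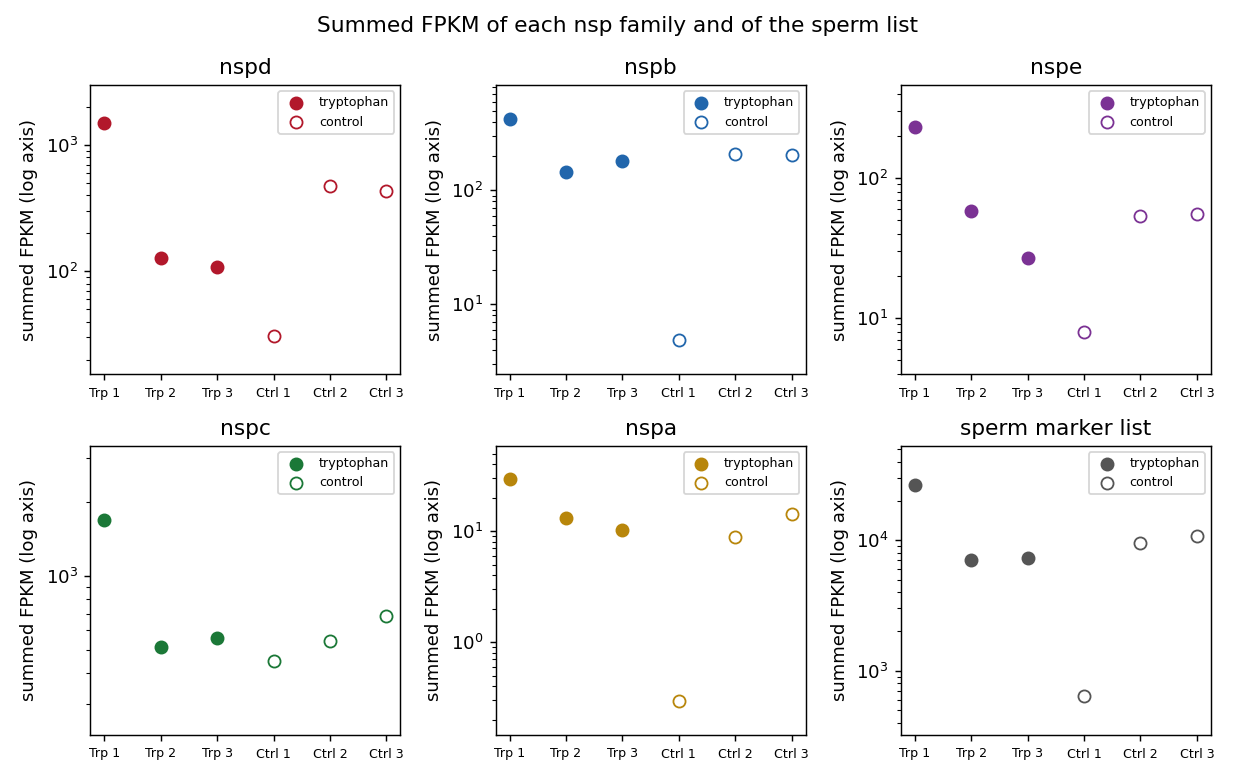
Summed FPKM (log axis) of each nsp family and of the sperm marker list in tryptophan libraries 1 to 3 (filled) and control libraries 1 to 3 (open). The nspd, nspb, nspe and nspa sums share with the sperm list a high value in tryptophan library 1 and a low value in control library 1; the nspc sum in control library 1 is 73.4% of that in the other controls.

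The nspb genes did not differ between the groups by the test, in all libraries or in libraries 2 and 3. Their summed level was 420.3, 146 and 180.4 FPKM with tryptophan, against 4.89, 209.7 and 204 FPKM in controls. Control library 1 held 2.36% of the mean of the other controls, and tryptophan library 1 held 2.57 times the mean of the other tryptophan libraries. Scaled per mega FPKM of all genes, nspb summed to 377, 204 and 297 with tryptophan, against 4.82, 286 and 248 in controls. Tryptophan library 1 stood less far above the other tryptophan libraries on that scale. The 3 most abundant were nspb-1, nspb-2 and nspb-6. nspb-1 (F38A5.14, chromosome IV, 6590734 to 6591110) had 48.8, 24.2 and 23.4 FPKM with tryptophan, against 0.729, 31.2 and 30.3 FPKM in controls. nspb-2 (F38A5.12, chromosome IV, 6591696 to 6592080) had 79.6, 21.3 and 22.2 FPKM with tryptophan, against 0.270, 23.5 and 27.9 FPKM in controls. nspb-6 (H04M03.2, chromosome IV, 5895490 to 5895888) had 89.0, 18.5 and 22.95 FPKM with tryptophan, against 1.51, 28.3 and 24.2 FPKM in controls. In each, control library 1 was the lowest and tryptophan library 1 the highest of the 6.

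Over all libraries the log2 fold changes were 1.38 ± 1.12 for nspb-1, 1.84 ± 1.22 for nspb-2 and 1.50 ± 1.05 for nspb-6 (SE; limma, adjusted p = 0.802 for each). In libraries 2 and 3 they were -0.36, -0.23 and -0.33. The family median there was -0.31 with 11 of 12 negative and 0 called. Both tryptophan libraries lay below both control libraries in 6 of the 11 tested genes, against 25% of all genes tested. After rescaling to TPM, 7 of 12 were negative. Both tryptophan libraries then lay below both control libraries in 2 of the 11, against 1608 of the 13511 genes. nspb-9, chosen after its values were seen, was the member outside nspd at or below -1.10. It had 14.5, 2.97 and 2.33 FPKM with tryptophan, against 6.40 and 9.97 FPKM in control libraries 2 and 3 and a listed 0 in control library 1, and its log2 fold change in libraries 2 and 3 was -1.31 (limma, adjusted p = 0.108). nspb-1 and nspb-2 overlap irld-7, a gene at 0.0625 to 3.36 FPKM, so reads in the shared bases cannot be assigned with certainty. Per 100 FPKM of the sperm list, nspb summed to 1.59, 2.08 and 2.46 FPKM with tryptophan and to 0.756, 2.20 and 1.89 FPKM in controls. The groups overlapped by this ratio, and in libraries 2 and 3 the family was at 78.9% of the controls, against 70.6% for the sperm list.

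The nspe genes did not differ between the groups by the test. Their summed level was 231, 58.0 and 26.8 FPKM with tryptophan, against 7.95, 53.8 and 55.6 FPKM in controls. Most of it came from 3 genes. nspe-1 (Y38E10A.13, chromosome II, 12620649 to 12620864) had 94.0, 21.7 and 9.30 FPKM with tryptophan, against 4.58, 25.3 and 28.4 FPKM in controls. nspe-7 (Y38E10A.15, chromosome II, 12627187 to 12627570) had 72.3, 22.9 and 5.30 FPKM with tryptophan, against 0.816, 12.8 and 13.6 FPKM in controls. nspe-2 (Y38E10A.26, chromosome II, 12619173 to 12619388) had 40.0, 10.03 and 3.87 FPKM with tryptophan, against 1.87, 10.3 and 9.95 FPKM in controls. Tryptophan library 3 was the lower of tryptophan libraries 2 and 3 for all 3 genes, and the groups overlapped.

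The low members of the same cluster did not share a direction in libraries 2 and 3. nspe-5 (Y38E10A.16, chromosome II, 12628866 to 12629384) had 11.3, 2.31 and 4.92 FPKM with tryptophan, against 0.680, 3.40 and 1.89 FPKM in controls. nspe-4 (Y38E10A.11, chromosome II, 12612518 to 12614023) had 6.55, 0.523 and 1.56 FPKM with tryptophan, against a listed 0, 0.505 and 0.652 FPKM in controls. Their log2 fold changes over all libraries were 1.17 ± 0.61 and 1.19 ± 0.59 (SE; limma, adjusted p = 0.802 for each), with unadjusted p of 0.0933 and 0.0837, among the 3 smallest of the nsp genes with a positive change. In libraries 2 and 3 both stayed positive, at 0.31 and 0.32, whereas nspe-1, nspe-2 and nspe-7 were at -0.86, -0.60 and -0.21. The other tested low member, nspe-6, named after its values were seen, had 4.35, 0.217 and 1.25 FPKM with tryptophan, against a listed 0, 1.46 and 0.901 FPKM in controls, and was at -0.39 in libraries 2 and 3. nspe-4 and nspe-6, at means of 1.63 and 1.36 FPKM, reached the 1 FPKM required for testing only through tryptophan library 1. The p of nspe-4 therefore lends no support to a positive change. No nspe gene passed, and the difference between members was not tested. nspe-3, chosen after its values were seen, had 2.71, 0.353 and 0.583 FPKM with tryptophan and was listed at 0 in all 3 control libraries. At the annotated exon length this corresponds to roughly 15.7, 2.42 and 4.84 counted units with tryptophan, too few for a fold change.

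The nspc genes were also lowest by sum in control library 1, but less reduced there than the sperm list and the other 4 families. Their summed level was 1690, 514 and 558 FPKM with tryptophan, against 449.6, 543 and 682 FPKM in controls. Control library 1 was thus at 73.4% of the mean of control libraries 2 and 3, with single members at 20.1% to 141%. The same share was 6.77% for nspd, 2.36% for nspb, 14.5% for nspe and 2.53% for nspa. Per 100 FPKM of the sperm list, nspc summed to 6.39, 7.31 and 7.60 FPKM with tryptophan, against 69.5, 5.70 and 6.29 FPKM in controls. Control library 1 stood far above the other 5 by this ratio. In tryptophan library 1, nspc was 3.15 times the mean of the other tryptophan libraries, against 3.68 times for the sperm list. Both multiples include the higher FPKM total of that library. Scaled per mega FPKM of all genes, nspc summed to 1515, 718.5 and 918 with tryptophan, against 444, 740 and 827 in controls.

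**Figure D5:**
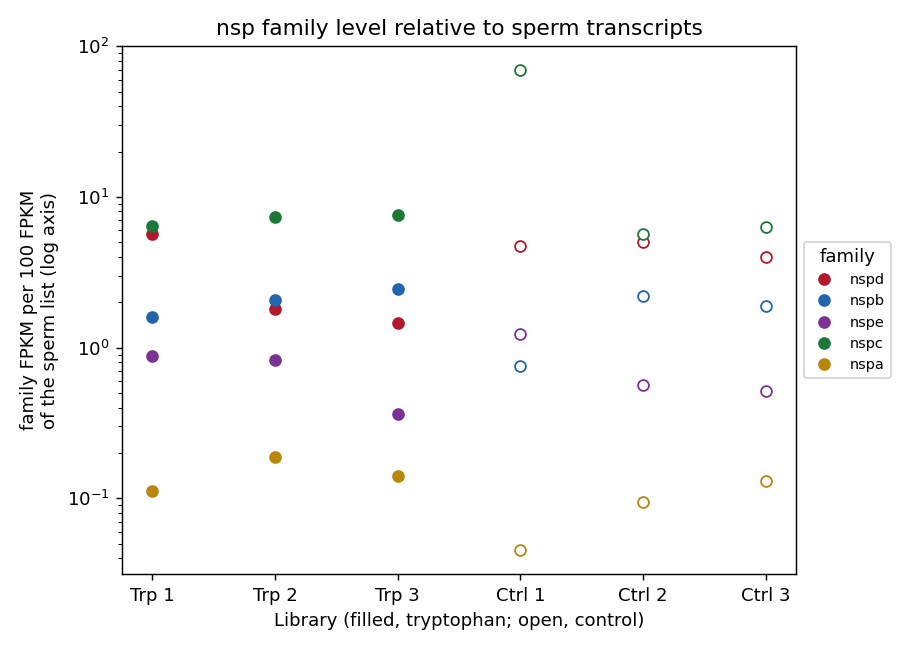
Summed FPKM of each nsp family per 100 FPKM of the sperm marker list (log axis) in tryptophan libraries 1 to 3 (filled) and control libraries 1 to 3 (open). The nspc ratio in control library 1 is 69.5 against 5.70 to 7.60 in the other 5 libraries, and the nspd ratio is 1.81 and 1.46 in tryptophan libraries 2 and 3 against 3.96 to 5.67 in the other 4.

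The nspc genes lay in 3 clusters on X, and the most abundant members were in the second and the third. nspc-20 (D1025.4, X, 14529788 to 14530207) had 397, 73.3 and 95.2 FPKM with tryptophan, against 58.4, 93.4 and 112 FPKM in controls. nspc-14 (F42F12.7, X, 12358614 to 12359057) had 267, 79.0 and 72.7 FPKM with tryptophan, against 66.7, 92.0 and 118.5 FPKM in controls. nspc-9 (F42F12.1, X, 12342946 to 12343379) had 262, 75.5 and 61.5 FPKM with tryptophan, against 54.9, 70.6 and 95.3 FPKM in controls. In these genes tryptophan library 1 stood above the other 5, which overlapped between the groups. Their log2 fold changes were 0.72 ± 0.67, 0.36 ± 0.57 and 0.57 ± 0.60 over all libraries (SE; limma, adjusted p = 0.802, 0.852 and 0.802) and -0.29, -0.46 and -0.26 in libraries 2 and 3, where 0 of the 18 passed. In those libraries 2 nspc genes had both tryptophan libraries above both controls, against 21.4% of all genes, and 2 had both below, against 25%.

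nspc-17 (D1025.8, X, 14524754 to 14525181) had 117, 42.8 and 47.7 FPKM with tryptophan, against 25.8, 27.3 and 40.2 FPKM in controls. The groups did not overlap, at 69.1 ± 41.5 FPKM with tryptophan and 31.1 ± 7.91 FPKM in controls (SD, n = 3 each), but the gene did not pass (log2 fold change 1.00 ± 0.49, SE; limma, adjusted p = 0.802). It had the smallest unadjusted p of the nsp genes, 0.0788, and its log2 fold change in libraries 2 and 3 was 0.44. At the other end, nspc-4 (C03G5.11, X, 8537956 to 8538362) had 49.96, 34.04 and 43.4 FPKM with tryptophan, against 46.7, 38.7 and 48.3 FPKM in controls. Among the nspc genes, tryptophan library 1 stood least above the other tryptophan libraries in nspc-4, at 1.29 times their mean. nspc-6 (C03G5.13, X, 8541146 to 8541496) had 2.23, 0.787 and 2.21 FPKM with tryptophan, against 1.76, 1.67 and 2.29 FPKM in controls. Over all libraries their log2 fold changes were -0.08, turning to 0.09 with quantile normalization and to 0.03 with TPM, and -0.13, with overlapping groups.

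The 3 clusters differed in level and in how far tryptophan library 1 stood above. The 7 genes within 7.6 kb at 8534672 to 8542283 summed to 237, 97.4 and 118 FPKM with tryptophan, against 121, 122 and 142 FPKM in controls. The 6 genes within 18.2 kb at 12342946 to 12361159 summed to 761, 250.1 and 245 FPKM with tryptophan, against 206, 265 and 334 FPKM in controls. The 5 genes within 6.6 kb at 14523575 to 14530207 summed to 693, 167 and 195 FPKM with tryptophan, against 123, 156 and 206 FPKM in controls. As deposited, control library 1 was level with control library 2 in the first cluster and was the lowest library in the other 2. The FPKM of all genes was higher in control library 1 than in control library 2, at 1.01e+06 against 733462. The cluster sums were not rescaled for this. The median log2 fold changes were 0.23, 0.40 and 0.94 over all libraries and -0.17, -0.22 and 0.20 in libraries 2 and 3, in the order of position on X. The family median in libraries 2 and 3 was -0.13, and 0.09 after rescaling to TPM. Tryptophan library 1 over the mean of the other tryptophan libraries ran from 1.29 to 3.56, from 1.46 to 3.82 and from 2.58 to 6.08 in single genes. These differences between clusters are descriptions and were not tested.

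The nspa genes were the least abundant and the least precisely measured. Their summed level was 29.5, 13.1 and 10.4 FPKM with tryptophan, against 0.293, 8.95 and 14.2 FPKM in controls. At the annotated exon length of 105 bp, this would be 54.5, 28.6 and 27.3 counted units with tryptophan and 0.457, 20.2 and 29.9 units in controls. The 0.457 units of control library 1 came from nspa-8 and lie below 1 unit. The length behind the deposited FPKM was thus not 105 bp for every member, and the units are rough. nspa-4 (H12D21.13, chromosome V, 14884716 to 14884820) had 9.51, 2.61 and 5.49 FPKM with tryptophan, against a listed 0, 3.43 and 3.45 FPKM in controls. nspa-5 (ZC412.6, chromosome V, 14878348 to 14878452) had 8.89, 3.50 and 3.11 FPKM with tryptophan, against a listed 0, 2.34 and 3.91 FPKM in controls. nspa-8 (W06A7.5, chromosome V, 14826948 to 14827052) had 8.40, 5.65 and 1.38 FPKM with tryptophan, against 0.293, 1.41 and 5.43 FPKM in controls. Tryptophan library 1 was the highest and control library 1 the lowest for all 3, and the other libraries overlapped.

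Their log2 fold changes over all libraries were 1.21 ± 0.71, 1.16 ± 0.68 and 0.96 ± 0.74 (SE; limma, adjusted p = 0.802 for each). In libraries 2 and 3 they were 0.12, 0.09 and 0.02, with the family sum at 101% of the controls. The other 3 listed nspa genes had at most 1.62 FPKM in any library, about 3 counted units. nspa-8 overlaps W06A7.4, a gene on the opposite strand at 5.64 to 9.90 FPKM, and without a statement on strand the reads of the pair cannot be told apart.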

How the data were processed

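RNA-seq of 3 tryptophan and 3 control libraries was analysed. The authors deposited FPKM per gene and library, per the file headers. Bowtie 0.12.2, StringTie and WBcel235 are named in the submitters' processing notes; counting, strand setting and scaling are not given there. Symbols, positions and exons came from the Ensembl release 115 annotation of WBcel235, which matched 46183 of the 46589 genes; 4 symbols shared by a pair of genes were settled by RefSeq symbols. Depth in counted units was estimated from the smallest steps of FPKM times length. From 68.2% to 73.4% of low values lay within 0.2 steps of a whole number. The counted units given are therefore estimates. Those of families and single genes assume the annotated exon length, which was not the length behind the FPKM of every member, and are rough. No whole counts were rebuilt for testing.

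limma 3.58.1 in R 4.3.3 was fitted to log2(FPKM + 1) of the 13511 genes with a mean of at least 1 FPKM (trended eBayes, two-sided, Benjamini-Hochberg over all genes, threshold 0.05). Fold changes on this scale understate changes of low genes. Family medians are over all listed members and have no test. The fit was also run on simulated data with independent noise per gene. These lacked the shared shift of the libraries numbered 1 and reads shared by near copies, so they do not bear on either. Genes named by rule were the 3 most abundant of each family and the 3 with the smallest p in each direction. Clusters joined members less than 20000 bp apart. The members, marker lists, rules and alternatives were chosen with earlier results of these data known. Alternative settings were libraries 2 and 3 only, each library left out, the replicate number as a block, TPM, quantile normalization or median rescaling, eBayes without trend, a mean of at least 5 FPKM or no filter, and a pseudocount of 0.1 or 0.5. Another 3, chosen after seeing the data, were libraries 2 and 3 with each rescaling.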

Additional observations from a re-analysis of the deposited data

How the results depend on the processing

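Over all 6 libraries the count of nsp genes called was 0 under each of the other settings that kept all 6 libraries and for each library left out (0.00 to 0.00), while libraries 2 and 3 alone gave 7 lower, 7 with median rescaling, 7 with quantile normalization and 6 with TPM, where nspd-4 had an adjusted p of 0.0580 in limma; the number higher was 0 throughout. The family medians there, in that order of settings, were -2.01, -2.02, -2.003 and -1.81 for nspd, -0.18, -0.19, -0.22 and -0.088 for nspe, and -0.13, -0.15 and -0.11 for nspc before TPM. A pseudocount of 0.1 moved the nspa median to 1.58. Leaving out each library gave medians of -0.79 to 1.12 for nspd, 0.03 to 1.84 for nspb, 0.30 to 1.26 for nspe, -0.02 to 0.71 for nspc and 0.31 to 0.92 for nspa. The lower end came without tryptophan library 1 or control library 1.

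Among the 20 named genes the sign of the log2 fold change turned in libraries 2 and 3 as follows. Without rescaling it was -0.36 for nspb-1, -0.23 for nspb-2, -0.33 for nspb-6, -0.46 for nspc-14, -0.29 for nspc-20, -0.26 for nspc-9, -1.57 for nspd-1, -1.46 for nspd-10, -2.23 for nspd-2, -0.86 for nspe-1, -0.60 for nspe-2 and -0.21 for nspe-7. With median rescaling it was -0.00 for nspa-8, -0.37 for nspb-1, -0.24 for nspb-2, -0.34 for nspb-6, -0.47 for nspc-14, -0.30 for nspc-20, -0.28 for nspc-9, -1.58 for nspd-1, -1.48 for nspd-10, -2.25 for nspd-2, -0.88 for nspe-1, -0.62 for nspe-2 and -0.23 for nspe-7. With quantile normalization it was -0.35 for nspb-1, -0.22 for nspb-2, -0.33 for nspb-6, -0.36 for nspc-14, -0.20 for nspc-20, -0.19 for nspc-9, -1.51 for nspd-1, -1.40 for nspd-10, -2.22 for nspd-2, -0.91 for nspe-1, -0.64 for nspe-2 and -0.29 for nspe-7. With TPM it was -0.13 for nspb-1, -0.10 for nspb-6, -0.22 for nspc-14, -0.05 for nspc-20, 0.07 for nspc-4, -0.03 for nspc-9, -1.34 for nspd-1, -1.25 for nspd-10, -2.02 for nspd-2, -0.65 for nspe-1, -0.42 for nspe-2 and -0.01 for nspe-7. Over all 6 libraries, quantile normalization turned nspc-4 to 0.09 and nspd-2 to -0.08, and TPM turned nspc-4 to 0.03. Leaving out each library turned the sign of 10 named genes, whose values ran from -0.02 to 2.09 for nspb-1, -0.24 to 0.69 for nspc-14, -0.02 to 1.19 for nspc-20, -0.20 to 0.07 for nspc-4, -0.27 to 0.15 for nspc-6, -0.07 to 0.96 for nspc-9, -0.52 to 1.48 for nspd-1, -0.40 to 1.70 for nspd-10, -1.12 to 1.09 for nspd-2 and -0.09 to 1.51 for nspe-1. The cause was not tested.

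With the replicate number as a block, 0 nsp genes were called and the family medians did not move. Same-numbered libraries deviated from their group means with correlations of -0.37, -0.30 and -0.34. Libraries of different number gave -0.56 to 0.51. Deviations from a mean of 3 libraries are tied to each other, so these values cannot decide whether the numbers pair the samples. A mean of at least 5 FPKM left 14 of the 20 named genes to test. The limits are the 2 libraries that stand apart, 2 libraries per group without them, low depth for nspa and the low nspe genes, and reads shared by near copies.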

Other observations

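The nspf genes, another nsp family whose peptides were found in sperm, belong to the sperm marker list and not to the families described above; none of nspf-1, nspf-2 and nspf-3 exceeded 1.46 FPKM in any library. Another 6 nsp pseudogenes are named by RefSeq alone and were not counted as members. All were listed at 0 in every library except nspd-11, at 0.293 FPKM in tryptophan library 3. Cuticle collagens were a list of 165 genes, of which 162 were listed above 0. They summed to 57310, 35075 and 29343 FPKM with tryptophan and to 52688, 48452 and 51747 FPKM in controls. Tryptophan libraries 2 and 3 were the lowest by this sum. Their FPKM of all genes was also lowest, at 715748 and 608336, against 733462 or more in the other libraries. The part of this scale in the collagen sums was not tested. The 3 collagen genes at 0 were col-55, col-165 and col-171. The 4 body wall muscle genes summed to 1123, 3341 and 2578 FPKM with tryptophan and to 2214, 2827 and 2004 FPKM in controls. The 6 spermatheca and sheath genes summed to 135, 63.4 and 77.6 FPKM with tryptophan and to 102, 70.0 and 76.5 FPKM in controls, and the 5 neuronal genes to 279, 235.03 and 245 FPKM with tryptophan and to 302, 245 and 244 FPKM in controls. The part of these cell types in the nsp values was not tested.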
